A study of Mus musculus with 2 samples.

Results

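The 38 autophagy genes described here were chosen by gene name from the core machinery of macroautophagy, with their receptors and lysosomal partners, and each matched 1 of the 55536 genes in the gene tables. Their levels were read in total RNA from heart tissue of adult female mice, 8 to 10 months old, of a cross labelled 5xFAD/CAST. The 5xFAD line carries mutant human transgenes under the Thy1 promoter, which is active mainly in neurons, and is used to model Alzheimer's disease, while CAST mice descend from wild mice. The series holds 1 group of 2 biological replicates, each made from 300 ng of RNA with ERCC spike-ins and a directional kit, so no group stood against another and no comparison between conditions could be tested. The replicates are separate biosamples that share 1 donor identifier in the labels, and an SD (n = 2) therefore measures only the spread between these libraries, which may be technical.

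Autophagy encloses cytoplasm, protein aggregates or organelles in a double membrane, the autophagosome, and delivers them to the lysosome for breakdown. A kinase complex around ULK1 starts the process, a lipid kinase complex around Beclin 1 marks the membrane, and conjugation enzymes attach small ubiquitin-like proteins of the ATG8 family (LC3 and GABARAP) to it, where receptors such as p62 bind their cargo. Heart muscle cells rarely divide and rely on autophagy to replace mitochondria and long-lived proteins, and loss of the lysosomal protein LAMP2 causes a cardiomyopathy in humans, Danon disease.

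The ATG8 family carried the highest level of any of the 8 roles into which the genes were grouped, so the ends of the coding sequences of 4 of its genes are shown first. Each ATG8 protein is cut by an ATG4 protease behind a glycine, which is then joined to a membrane lipid. The last 36 coding bases, stop codon included, are given 5′ to 3′ from the GENCODE M21 transcripts on mm10, with the codon of that glycine in capitals. These are reference sequences, not reads of the cross. Used were complete transcripts marked protein coding in which a glycine codon follows a phenylalanine or tyrosine codon in this stretch. The most abundant such transcript of each gene is shown: Map1lc3a-201, Gabarap-201, Gabarapl1-201 and Gabarapl2-201. Gabarap-202, with 321 coding bases against 354 in Gabarap-201, did not meet these conditions, though it led Gabarap in the alignment-based tables.

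Map1lc3a: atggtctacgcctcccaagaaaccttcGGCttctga

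Gabarap: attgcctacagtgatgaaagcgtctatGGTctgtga

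Gabarapl1: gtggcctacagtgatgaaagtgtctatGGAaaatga

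Gabarapl2: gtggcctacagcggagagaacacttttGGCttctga

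All of these stretches lie in 1 exon on the plus strand: chr2:155277602-155277637 for Map1lc3a, chr11:69994489-69994524 for Gabarap, chr6:129541132-129541167 for Gabarapl1 and chr8:111952370-111952405 for Gabarapl2. The glycine is codon 120 in Map1lc3a and codon 116 in the GABARAP genes, and 1 codon stands between it and the stop in each. Over the whole coding sequence, Gabarap and Gabarapl1 were identical at 74.9% of aligned bases, against 51.4% to 63.8% for the other pairs of these 4 genes.

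The libraries held 45599940.0 and 40801299 expected counts, of which spike-ins took 0.412% and 0.357%, and the autophagy genes 99813 and 86447 counts. Levels are given in TPM, a relative abundance corrected for length and rescaled here to endogenous genes. The tissue label fitted the heart muscle markers, since all 6 were detected and their summed level was 25728 and 28326 TPM. Markers of fibroblasts (144.0 and 163.2 TPM summed over 5 genes), endothelium (166.7 and 161.4 TPM over 5) and macrophages (58.2 and 65.5 TPM over 5) were also present. Skeletal muscle markers summed to 1231 and 1348 TPM over 5 genes, of which Ckm, a creatine kinase that heart muscle also makes, held 1152 and 1226 TPM. Acta1 held 71.9 and 116.9 TPM. The other markers of this list were lower in replicate 2: Tnnt3 (4.39 and 3.0 TPM), Myh4 (3.32 and 2.24 TPM) and Myh1 (0.382 and 0.302 TPM). Replicate 2 held more smooth muscle (38.6 and 72.5 TPM over 4 genes) and adipocyte marker RNA (17.9 and 27.3 TPM over 4). Cnn1 (1.11 and 3.32 TPM) and Adipoq (1.09 and 3.08 TPM) were over 2-fold apart. Cfd held 15.1 and 21.6 TPM of the adipocyte sum, and Lep, with 9 and 3 counts, was lower in replicate 2. The part of these cell types in the levels below was not tested. In bulk tissue, fewer cells of a type and less RNA per cell cannot be told apart.

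All 38 autophagy genes reached at least 1 TPM in both libraries, as did 10784 of 22028 protein-coding genes (49.0%). Their median level was 12.8 TPM, against 7.80 TPM for the protein-coding genes detected. Summed over all members the level was 1340 TPM in replicate 1 and 1346 TPM in replicate 2. The ATG8 family made up 577 ± 3.72 TPM of this, the cargo receptors 214.7 ± 7.85, the lysosomal proteins with TFEB 205.5 ± 4.47, the induction complex 108.5 ± 2.15, the membrane supply genes 89.8 ± 3.60, the PI3-kinase complex 61.7 ± 0.401, the ATG4 proteases 46.1 ± 3.17 and the conjugation enzymes 39.9 ± 1.70 (SD, n = 2). These sums are over 3 to 6 genes a role, and single genes of different roles overlapped in level.

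**Figure D1:**
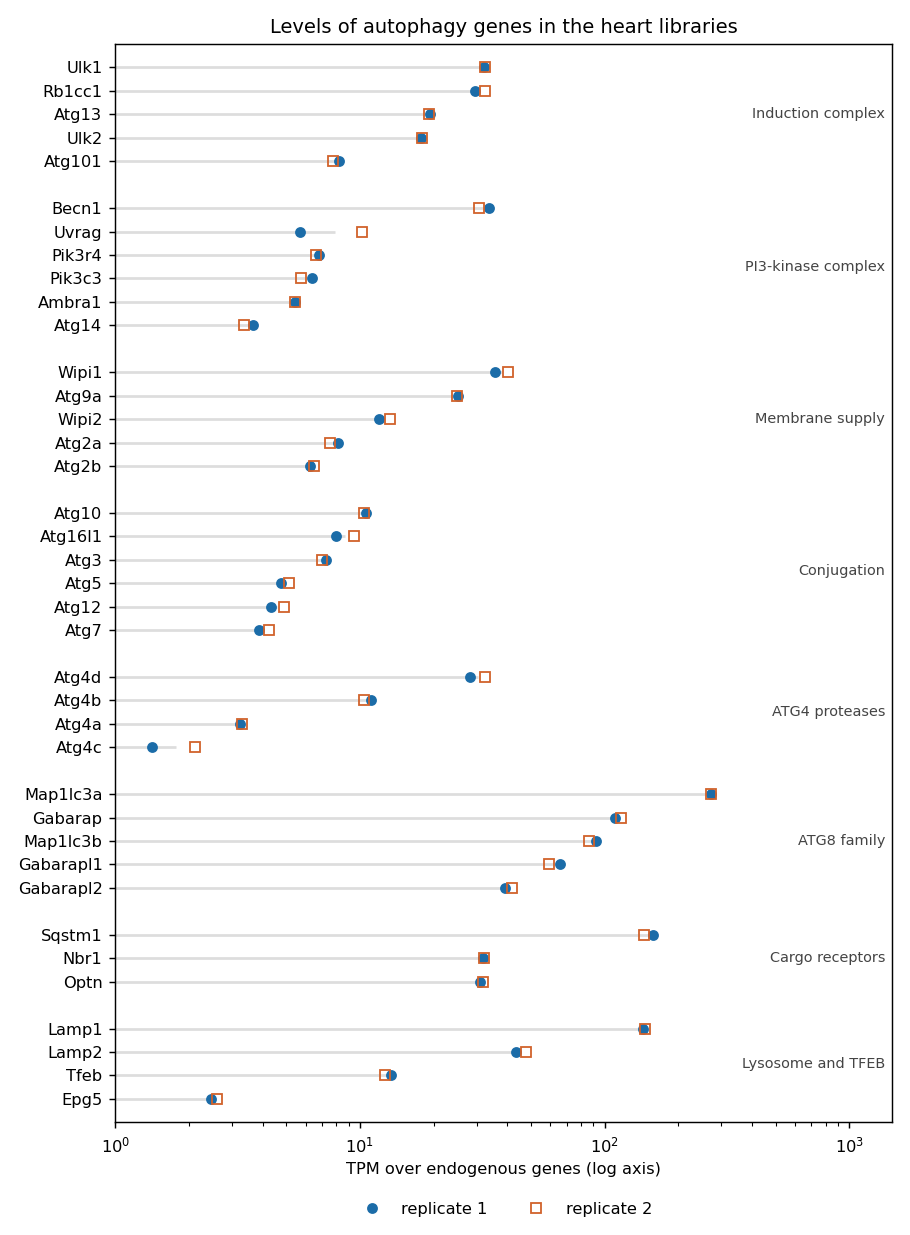
TPM over endogenous genes (log axis) of the 38 autophagy genes, grouped by role, with a filled circle for replicate 1, an open square for replicate 2 and a grey line to their mean. Levels ran from 1.77 TPM (Atg4c) to 271.9 TPM (Map1lc3a), and Uvrag and Atg4c have the widest gaps between their symbols.

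In the induction complex, Ulk1, the kinase that starts autophagosome formation, was at 32.2 and 32.5 TPM. Its paralog Ulk2 was at 17.8 and 18.0 TPM, and the ratio of Ulk1 over Ulk2 was 1.81 in each library. Rb1cc1, which encodes the scaffold FIP200, was at 29.6 and 32.5 TPM. These levels put Ulk1 and Rb1cc1 side by side and above Ulk2 by more than the spread between libraries. Atg13, the adaptor of the complex, was at 19.2 TPM in both, and Atg101, its binding partner, at 8.20 and 7.78 TPM.

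The PI3-kinase complex makes the lipid PI3P on the growing membrane. Becn1, the gene of its scaffold Beclin 1, was at 33.5 and 30.7 TPM, while Pik3c3, which encodes the catalytic subunit VPS34, was at 6.35 and 5.75 TPM. Pik3r4, the regulatory subunit, was at 6.82 and 6.64 TPM, and Ambra1, a regulator of Beclin 1, at 5.42 and 5.41 TPM. By gene total Becn1 thus stood above the other subunits in both libraries. Its transcripts marked protein coding, however, were at 3.81 and 4.72 TPM, below those of Pik3c3 (6.35 and 5.75 TPM). Of this part of Becn1, the fragment Becn1-204, of 375 bases with neither end annotated, held 3.03 and 1.36 TPM from 32.3 and 12.4 counts. The order of Becn1 and Pik3c3 therefore depends on which transcripts are counted. Atg14, which directs the complex to autophagosome formation, was at 3.66 and 3.36 TPM. Uvrag, which takes its place in a complex of later endosomal steps, was at 5.67 and 10.2 TPM, the widest ratio of any member between the libraries on the TPM scale.

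Among the genes that supply membrane, Wipi1, a PI3P-binding protein, was at 35.8 and 40.1 TPM and its relative Wipi2, which recruits ATG16L1, at 11.9 and 13.3 TPM. The ratio of Wipi2 over Wipi1 was 0.333 and 0.332. Atg9a, a lipid scramblase of the vesicles that seed the membrane, was at 25.1 and 24.8 TPM. The lipid transfer genes Atg2a (8.16 and 7.54 TPM) and Atg2b (6.23 and 6.49 TPM) lay close together.

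The conjugation enzymes were low. Atg7, the E1-like enzyme that activates both ATG12 and the ATG8 proteins, was at 3.85 and 4.23 TPM. Its deposited credibility bounds, 4.29 to 6.12 and 4.84 to 7.34, lay above these values. The direct tables gave Atg7 4.26 and 5.80 TPM, so its rank among the low conjugation genes is uncertain. Atg3, the E2-like enzyme for ATG8, was at 7.23 and 7.0 TPM, and Atg10, the E2-like enzyme for ATG12, at 10.6 and 10.4 TPM. Of the products, Atg12 was at 4.33 and 4.88 TPM, Atg5, its conjugation partner, at 4.74 and 5.15 TPM, and Atg16l1, which places the conjugate on the membrane, at 7.95 and 9.42 TPM. All 6 therefore lay below the median member.

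The ATG4 proteases cut ATG8 precursors and release ATG8 from lipid. Atg4d was highest by gene total, at 28.1 and 32.6 TPM, followed by Atg4b at 11.1 and 10.4 TPM. Atg4b encodes the protease with the broadest activity on ATG8 precursors. Atg4a was at 3.24 and 3.30 TPM, and Atg4c, the lowest of all members, at 1.42 and 2.12 TPM. Atg4d over Atg4c was 19.8 and 15.4 by gene total. On transcripts marked protein coding the order turned round, with Atg4d at 0.473 and 0.402 TPM, the lowest of all members, and Atg4c at 1.42 and 1.94 TPM.

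Map1lc3a, the gene of LC3A, was the most abundant member, at 273 and 271.0 TPM, and ranked 200 among the 10784 protein-coding genes detected. Gabarap followed at 110.4 and 116.2 TPM, Map1lc3b, the gene of the widely used autophagosome marker LC3B, at 91.8 and 86.3 TPM, Gabarapl1 at 65.6 and 59.1 TPM, and Gabarapl2 at 39.0 and 41.6 TPM. The neighbours in this order did not overlap between the libraries. Map1lc3a thus held 47.1% ± 0.0943 of the family's TPM, Gabarap 19.6% ± 0.840, Map1lc3b 15.4% ± 0.579, Gabarapl1 10.8% ± 0.725 and Gabarapl2 6.99% ± 0.370 (SD, n = 2). In the direct tables the order of Gabarap (92.0 and 100.03 TPM) and Map1lc3b (121.7 and 122.0 TPM) turned round.

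**Figure D2:**
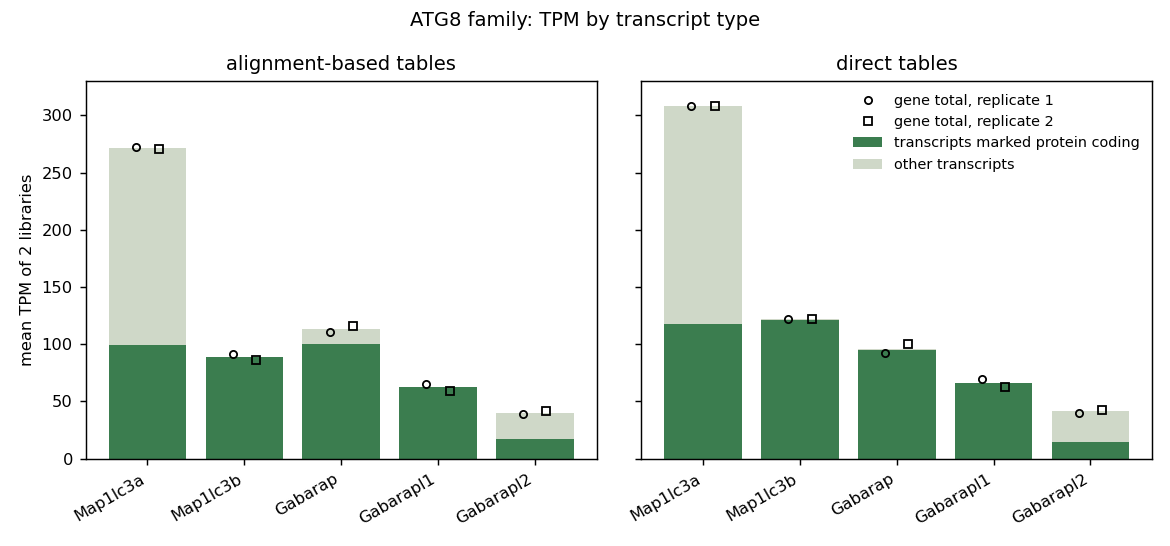
Mean TPM of the ATG8 genes in the alignment-based tables (left) and the direct tables (right), as bars split into transcripts that the annotation marks as protein coding and other transcripts, with each library's gene total as a symbol. Map1lc3a is highest in both panels by gene total, while its protein-coding part, 99.4 TPM on the left, is about as high as that of Gabarap (100.6 TPM), and on the right it is 117.6 TPM for Map1lc3a, 95.1 TPM for Gabarap and 121.3 TPM for Map1lc3b.

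Of the cargo receptors, Sqstm1, which encodes p62, a receptor for ubiquitinated cargo, was at 157.7 and 145.3 TPM. Nbr1, a receptor built on the same plan, was at 31.7 and 32.1 TPM, and Optn, the receptor optineurin, at 30.9 and 31.8 TPM. Sqstm1 over Nbr1 was 4.97 and 4.52, and the values of Nbr1 and Optn overlapped between the libraries.

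Lamp1 and Lamp2 encode the main glycoproteins of the lysosomal membrane. Lamp1 was at 143.0 and 145.7 TPM and Lamp2 at 43.6 and 47.7 TPM, a ratio of 3.28 and 3.05. Tfeb, the transcription factor that switches on lysosomal and autophagy genes, was at 13.3 and 12.7 TPM. Epg5, a tethering factor in the fusion of autophagosomes with lysosomes, was at 2.46 and 2.60 TPM.

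The transcripts of Lamp2 differ at their last coding exon, which sets the transmembrane segment and the tail. LAMP-2A is the receptor of chaperone-mediated autophagy, LAMP-2B is the form known as the main one in heart and skeletal muscle, and LAMP-2C binds nucleic acids that lysosomes take up. The transcripts share their first 1109 coding bases and then have 139 or 142 of their own. Their last 36 coding bases are shown with the stop codon in capitals.

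Lamp2-201: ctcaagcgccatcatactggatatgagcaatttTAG

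Lamp2-202: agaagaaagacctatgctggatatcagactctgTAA

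Lamp2-203: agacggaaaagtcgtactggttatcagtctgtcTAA

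They lie on the minus strand of mm10, at chrX:38405432-38405467, chrX:38421712-38421747 and chrX:38402139-38402174 in this order, and encode the tails of LAMP-2A, LAMP-2B and LAMP-2C. Lamp2-202, the LAMP-2B form, held 67.8% and 66.6% of the gene's TPM. Lamp2-201, the LAMP-2A form, held 23.4% and 25.5%, and Lamp2-203, the LAMP-2C form, 7.08% and 6.54%. The order was the same in the direct tables, where Lamp2-202 held 71.9% and 70.4%, Lamp2-201 19.0% and 22.0% and Lamp2-203 7.22% and 6.10%. The forms therefore lay further apart than either the libraries or the kinds of table.

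**Figure D3:**
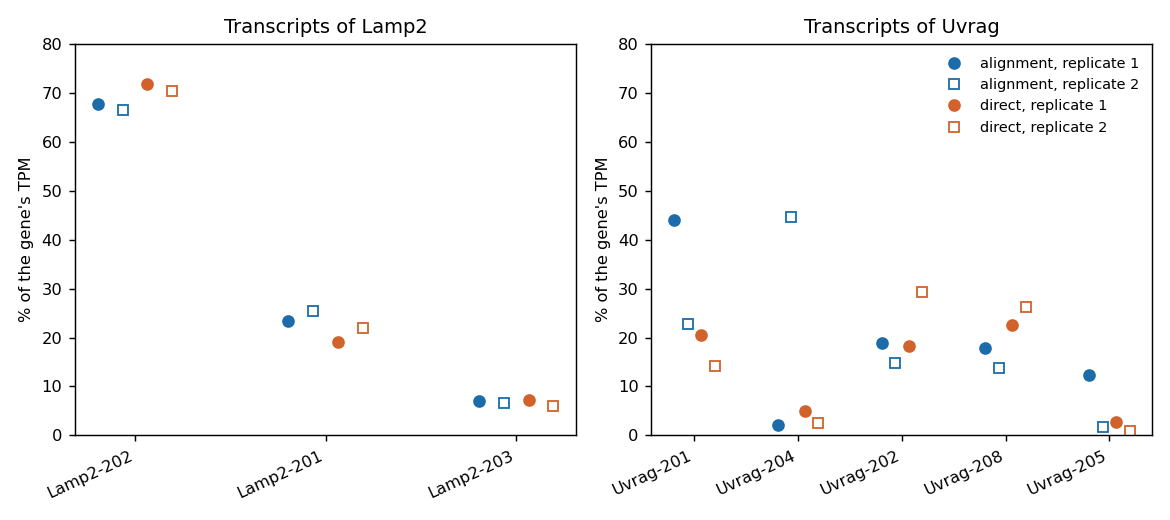
Percent of the gene's TPM held by the transcripts of Lamp2 (left) and of Uvrag (right), by library and kind of table. The 5 Uvrag transcripts are the most abundant in the alignment-based tables, and Uvrag-203, the most abundant in the direct tables, is not drawn. The Lamp2 shares keep 1 order throughout, with Lamp2-202 between 66.6% and 71.9%, while Uvrag-204 lies at 44.7% in replicate 2 of the alignment-based tables and at or under 4.96% elsewhere.

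Between the libraries, 0 of 38 members were 2-fold apart after scaling by TMM, which sets the bulk of the genes equal. Of the 12492 genes at or over a mean of 50 counts, 71 were, or 0.568%, and of 11634 protein-coding genes 32 were, shares at which fewer than 1 of 38 genes would be called. The members' median log2 ratio, replicate 2 over replicate 1, was -0.05, and 36 of 38 lay within 1.2-fold, as did 83.4% of all genes. The highest ratio was that of Atg4c, with 162 and 197 counts and a fold of 1.35 (95% counting interval 1.09 to 1.67), followed by Atg16l1 at a log2 ratio of 0.14 and Atg4d at 0.13. The lowest ratios were those of Atg14 at -0.26, with 461 and 346 counts, Pik3c3 at -0.20 and Gabarapl1 at -0.19. Intervals cover counting error only. All 5 ATG8 genes and all 5 genes of the induction complex lay below 0, and 5 of the 6 conjugation genes above it. These signs rest on the scaling: by spike-in totals 37 of 38 members lay above 0, and the median of all genes itself moved from -0.01 to 0.21.

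**Figure D4:**
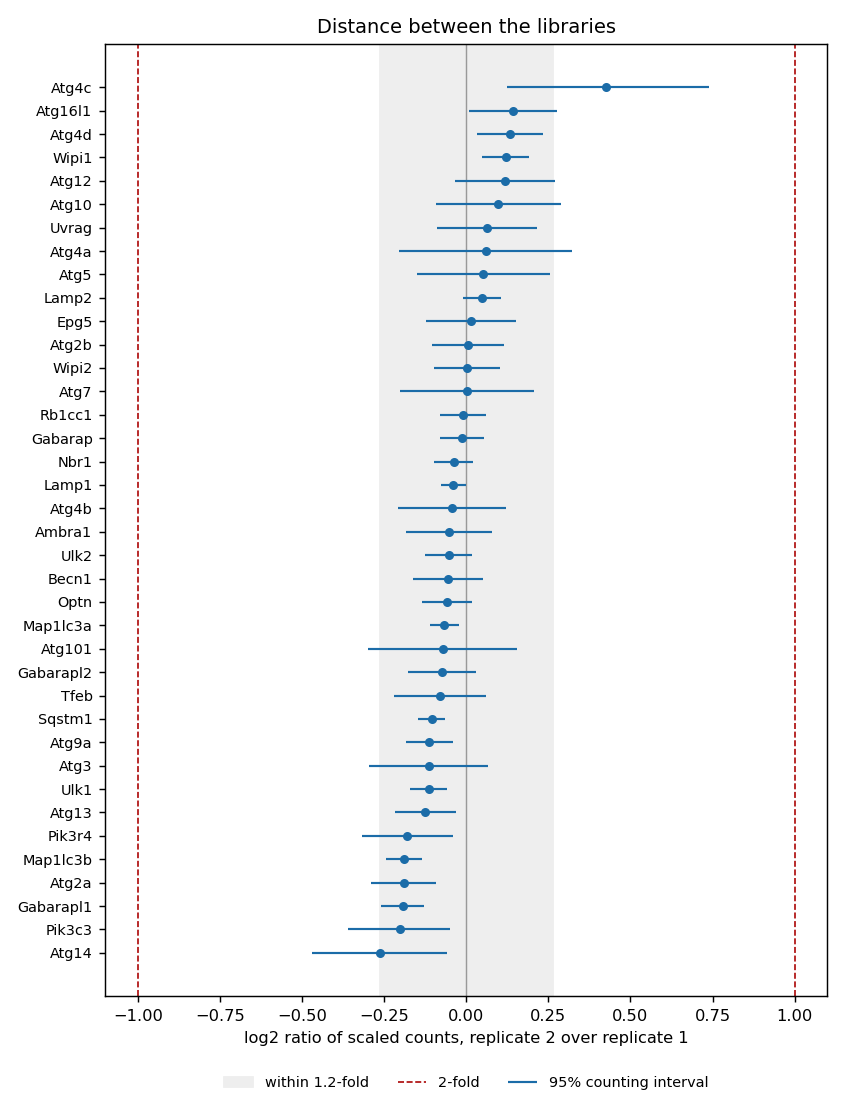
Log2 ratio of scaled counts, replicate 2 over replicate 1, of each autophagy gene (point) with its 95% counting interval (line). The band marks 1.2-fold and the dashed lines mark 2-fold. Every point lies between -0.26 and 0.43, and those of Atg4c and Atg14 lie farthest from 0, both outside the band.

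Uvrag shows how a short transcript can move a gene's TPM. Its counts were 732 and 689, a fold of 1.04 after scaling, while its TPM was 5.67 and 10.2, with deposited credibility bounds of 5.31 to 8.03 and of 8.64 to 12.9. In replicate 2, Uvrag-204, a processed transcript of 366 bases, held 40.3 counts and 44.7% of the gene's TPM. In replicate 1 it held 1.21 counts and 2.07%. The protein-coding Uvrag-201, of 5157 bases, stood at 2.49 and 2.31 TPM. The direct tables gave Uvrag 8.10 and 9.35 TPM, with 4.96% and 2.54% on Uvrag-204. The difference on the TPM scale was therefore carried by 1 transcript with few reads in 1 kind of table.

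The annotation marks many transcripts of these genes as not protein coding (retained intron, processed transcript or nonsense-mediated decay). Transcripts marked protein coding held a median of 94.4% of a member's TPM, against 92.9% for all protein-coding genes detected. In 5 of 38 members they held under 50% in both libraries, as they did in 674 of 10784 detected protein-coding genes (6.25%). The members were Atg4d (1.68% and 1.23%), Becn1 (11.4% and 15.4%), Uvrag (43.9% and 22.8%), Map1lc3a (36.2% and 36.9%) and Gabarapl2 (47.0% and 39.1%). Atg4d, Becn1 and Map1lc3a were each the highest of their role by gene total. All 5 were also under 50% in the direct tables, where Atg10 joined them.

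**Figure D5:**
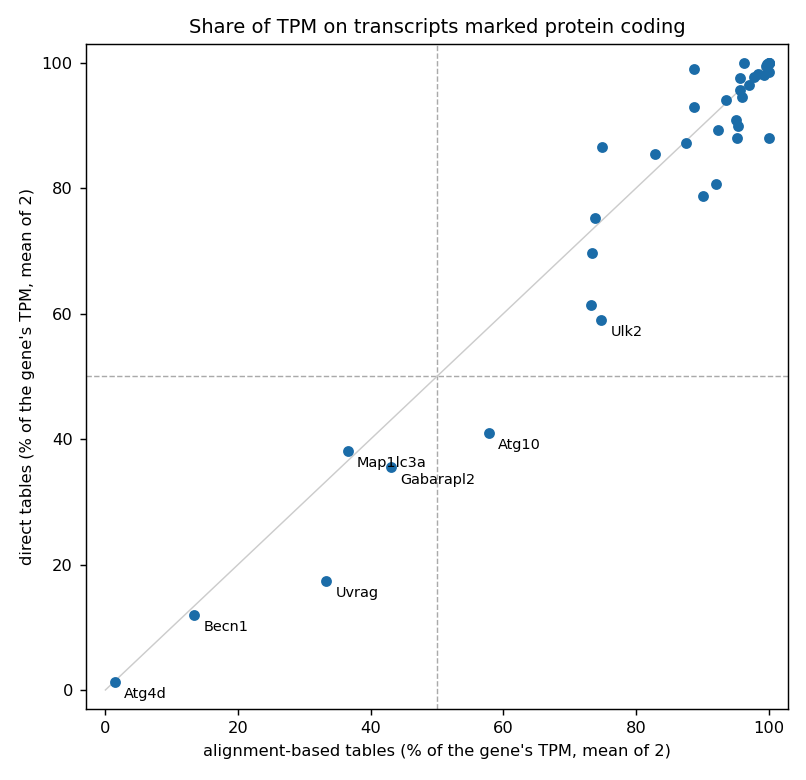
Share of each autophagy gene's TPM (%, mean of 2 libraries) on transcripts marked protein coding in the alignment-based tables (horizontal axis) and the direct tables (vertical axis), 1 point per gene. The dashed lines mark 50%, and the points of Atg4d, Becn1, Uvrag, Map1lc3a and Gabarapl2 lie below both.

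A transcript with such a label can still span the coding bases of a transcript marked protein coding. Atg4d-203, marked as a retained intron, held 56.9% and 57.2% of the gene's TPM and spans all 1425 coding bases of the coding transcript Atg4d-201 beside 202 bases of its introns. Atg4d-205, also marked as a retained intron, held 38.1% and 40.1%. Atg4d-201 itself is 5951 bases long, with 107.6 and 78.3 counts, while Atg4d-203 is 2123 bases long, with 1254 and 1258 counts. Becn1-201, marked for nonsense-mediated decay, held 39.2% and 42.8% of Becn1. It spans all 834 coding bases of Becn1-217. Of the protein-coding Becn1 transcripts with both ends annotated, Becn1-217 was the most abundant in the alignment-based tables. Whether these 834 bases are the whole coding sequence of Beclin 1 was not tested. Becn1-201 held 32.6% and 33.4% in the direct tables, where Becn1-211, a retained intron of 487 bases, led with 35.3% and 39.6%. Becn1-217 itself held 7.32% in replicate 2 of the alignment-based tables and was listed at 0 in replicate 1 and in the direct tables. Gabarapl2-203, a retained intron of 749 bases, held 53.0% and 60.9% and covers 90.4% of the coding bases of Gabarapl2-201.

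The main form of Map1lc3a depended on the kind of table. In the alignment-based tables Map1lc3a-203, a processed transcript of 826 bases, held 45.2% and 61.4%, and Map1lc3a-202, of 807 bases, 18.6% and 1.69%. In the direct tables Map1lc3a-203 held 2.77% and 16.2% and Map1lc3a-202 held 59.9% and 44.8%. The coding Map1lc3a-201 was steady, at 36.2% and 36.9% in the former and 37.3% and 39.0% in the latter. On coding transcripts alone the alignment-based levels were 100.6 ± 7.30 TPM for Gabarap, 99.4 ± 0.961 for Map1lc3a and 88.6 ± 3.85 for Map1lc3b. Gabarapl1 stood at 62.4 ± 4.59 and Gabarapl2 at 17.3 ± 1.46 TPM (SD, n = 2). By this label Map1lc3a and Gabarap no longer differed beyond their spread in these tables. However, Map1lc3a-203 and Map1lc3a-202, left out by the label, cover 89.1% and 84.7% of the coding bases of Map1lc3a-201. The Gabarap value includes Gabarap-202, which did not meet the conditions for the coding ends shown above. In the direct tables the coding transcripts of Map1lc3b (121.2 and 121.4 TPM) and Map1lc3a (114.9 and 120.2 TPM) lay above those of Gabarap (90.7 and 99.6 TPM) in both libraries.

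The most abundant transcript was protein coding in 34 of 38 members, the same in both libraries in 33 and the same in both kinds of table in 26. It held over 90% in both libraries in 9 members, among them Atg5-201 (100% in both), Lamp1-201 (99.8% in both), Gabarapl1-201 (97.5% and 99.6%) and Atg3-201 (94.0% and 96.7%). It held under 50% in both in 7. Among genes with a single leading form were also Optn-202 (90.8% and 85.9%), Sqstm1-202 (83.3% and 89.0%), Ulk1-201 (82.2% and 78.1%) and Atg2a-201 (81.0% and 78.9%). Several genes were split between a pair of coding forms: Atg9a-201 (56.1% and 45.7%) and Atg9a-205 (33.4% and 42.9%), Wipi2-201 (53.3% and 46.9%) and Wipi2-202 (41.0% and 48.9%), and Tfeb-212 (40.9% and 46.1%) and Tfeb-202 (40.6% and 41.7%). The split of Tfeb was uneven in the direct tables, where Tfeb-202 held 59.7% and 57.8% and Tfeb-212 held 19.6% and 29.7%. Tfeb-212 is a fragment of 1607 bases whose coding start is not annotated. It held 319 and 294 counts, against 470 and 395 on the complete Tfeb-202. In Map1lc3b, Map1lc3b-201 (53.3% and 51.5%) led in the alignment-based tables and Map1lc3b-203 (61.6% and 52.9%) in the direct ones. Rb1cc1 had no leading form by share of TPM. By the mean of the libraries Rb1cc1-216 was highest, at 17.5% and 20.6%, while in replicate 1 Rb1cc1-210 was higher, at 18.5%. Both are fragments, of 2712 and 690 bases, whose coding end is not annotated. In reads the complete Rb1cc1-201, of 7607 bases, led with 1542.5 and 1192.5 counts. Rb1cc1-216 held 523.3 and 582.6 counts and Rb1cc1-210 held 124.8 and 105.7.

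Of the low conjugation genes, Atg12-201 held 87.0% and 88.2% and Atg16l1-203, which led in the alignment-based tables with 61.5% and 70.7%, held 30.5% and 50.1% in the direct ones. Atg10 was split between the coding Atg10-201 (46.9% and 68.8%) and Atg10-203, marked for nonsense-mediated decay (40.7% and 31.2%). By the direct tables Atg10-203 held 17.2% and 8.03%, Atg10-201 held 33.6% and 48.4%, and Atg10-202, a processed transcript, 49.2% and 43.5%. Atg7-212 led Atg7 with 54.5% and 41.8%, but held 17.0% and 17.7% in the direct tables. Of these genes only Atg3, Atg5 and Atg12 thus kept their leading transcript above 80% in both libraries and both kinds of table.

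Of the proteases, Atg4a-201 held 92.4% and 100%, and Atg4c-201 held 63.3% and 70.4% by alignment but 42.8% and 40.3% in the direct tables, where Atg4c-203 was higher. Atg4b was led by Atg4b-203 (36.8% and 49.4%), a fragment of 513 bases whose coding end is not annotated, before the complete Atg4b-201 (25.9% and 31.5%). In reads the order of these was the other way, with 65.7 and 70.6 counts on the fragment and 455.4 and 443.6 on Atg4b-201.

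Of the kinase complexes, Ulk2-201 held 76.0% and 73.6%, Atg101-201 91.5% and 98.9%, Pik3c3-203 92.1% and 97.9%, Pik3r4-201 52.3% and 43.1%, and Atg14-201 96.4% and 91.2%. Atg14-201 held less, 52.9% and 53.7%, in the direct tables. The leading forms of Atg13 and Ambra1 differed between the libraries. For Atg13 these were Atg13-201 (41.6% and 35.2%) and Atg13-202 (33.4% and 36.3%), and for Ambra1 they were Ambra1-205 (43.8% and 33.1%) and Ambra1-203 (20.7% and 33.2%). In the direct tables Atg13-202 led with 54.5% and 52.7%, before the processed transcript Atg13-206 with 32.0% and 34.1%. Atg13-201 held 9.71% and 5.82% there. For Ambra1 the direct tables gave 29.7% and 17.2% for Ambra1-205 and 26.7% and 42.6% for Ambra1-203. Ambra1-202 held 34.7% and 17.6%, and so led in replicate 1. Among the other genes, Atg2b-201 held 64.6% and 66.0%, Nbr1-202 58.8% and 61.7%, and Epg5-201 100% in both. Wipi1 was shared by Wipi1-202 (69.7% and 66.2%) and Wipi1-201 (28.4% and 31.4%), and Gabarap by Gabarap-202 (48.2% and 53.6%) and Gabarap-201 (38.3% and 37.4%), of which the latter led in the direct tables with 72.1% and 67.5%.

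At the level of the gene, 0 of 38 members were 2-fold apart between the kinds of table in both libraries, against 582 of 12143 genes (4.79%) and 96 of 10951 protein-coding genes. The widest differences that held in both libraries were those of Map1lc3b, higher in the direct tables by 0.40 and 0.50 on the log2 scale with a pseudocount of 0.5 TPM, of Atg4a, at -0.41 and -0.35, and of Pik3r4, at -0.35 and -0.37. Near copies were found for Map1lc3b and Atg4a, and their part in these differences was not tested. Atg4a shared 60.8% of its 31-base words with Atg4a-ps, an annotated copy with 78.7 and 51.5 counts, beside 247 and 232 counts of its own. Map1lc3b shared 7.77% of its words with other genes, 4.19% with the pseudogene Gm6055, which held 357 and 307 counts. Atg9a shared 32.0%, of which 30.5% with Gm29253, which overlaps it on the same strand and held 86.1 and 37.6 counts. The split of reads between these pairs is uncertain.

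Several members overlap a gene on the other strand, and whether counting used the strand is not given in the sources used here. Kri1 covers 19.3% of the exonic bases of Atg4d and held 357 and 267 counts. Cntd1 covers 43.9% of Becn1 but held 6 and 2 counts, and Mrnip covers 17.3% of Sqstm1 with 45 and 42 counts. On Gabarapl1, 1700101I11Rik covers 28.3% with 35 and 21 counts, and on Uvrag, Gm45187 covers 17.6% with 2 and 0. Zcchc14 held more, 2328 and 1957 counts, but overlaps Map1lc3b (5819 and 4600 counts) over 58 bases only. The partner's counts were below the member's own in each of these pairs. For Atg4d they were 357 and 267 against 1632 and 1614.

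Of the promoters, 31 of 38 members matched the RefSeq set on GRCm38.p6, which spans 250 bases before to 50 after each gene's start. The E-box CACGTG, the core of the sites that TFEB and related factors bind, was found in 5 of them (Atg14, Atg3, Atg5, Atg7 and Lamp1), or 16.1%, against 8.09% of 27025 genes. It reads the same on both strands. The 27025 genes are all those of the promoter set, detected in heart or not, while all members were detected. The difference in shares rests on 5 genes and was not tested. The longer TCACGTGA, which contains the E-box, was found in Atg3 alone, against 1.12% of all genes. This longer match is shown in capitals because it is the fullest among the members.

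Atg3: ggagagtcgagTCACGTGAggccttaggtg

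It lies on the plus strand at chr16:45158746-45158775, with the motif 72 bases before the RefSeq start used for the window. The GENCODE M21 gene starts at 45158785, nearer to the motif. A match describes these letters only, and no binding was measured.

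The genes that act next to the members were described by lists. Of 21 further autophagy genes, all were detected, with a median of 16.9 TPM. The highest were Trp53inp2 (145.8 and 153.8 TPM), Sh3glb1 (106.2 and 111.8 TPM), Retreg1, a receptor for autophagy of the endoplasmic reticulum (111.0 and 98.9 TPM), and Calcoco1 (46.1 and 43.1 TPM). Of 12 genes for fusion with the lysosome all were detected, at a median of 10.4 TPM, led by the small GTPase Rab7 (89.2 and 89.6 TPM) and the SNARE Vamp8 (26.1 and 26.0 TPM), then Ykt6 (19.2 and 21.3 TPM) and Vps41 (11.4 and 12.8 TPM). Lysosomal enzymes and pump subunits were detected in 23 of 24 cases, at a median of 22.4 TPM. The highest were Psap, the precursor of the saposins (425.4 and 403.4 TPM), and the cathepsins Ctsd (357.0 and 357.3 TPM), Ctsb (126.2 and 143.0 TPM) and Ctsl (94.1 and 83.1 TPM). Psap and Ctsd thus stood above every autophagy gene in TPM, Map1lc3a included.

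All 18 genes of the mTORC1 and AMPK pathways, which hold back and switch on ULK1, were detected, at a median of 17.0 TPM. Prkag1, a regulatory subunit of AMPK (38.4 and 43.2 TPM), Lamtor1 (38.8 and 40.8 TPM), Tsc2 (39.7 and 35.1 TPM) and Rragd (34.6 and 35.1 TPM) were highest. All 7 transcription factors and regulators of autophagy were detected, at a median of 14.2 TPM, with Foxo3 (30.2 and 24.3 TPM), Mitf (17.8 and 18.9 TPM), Fnip1 (14.7 and 15.6 TPM) and Flcn (14.4 and 14.0 TPM) on top. Tfeb, at 13.3 and 12.7 TPM, lay below Foxo3 and Mitf in both libraries. In these 5 lists 0 genes were 2-fold apart between the libraries, and their median log2 ratios ran from -0.12 for the transcription factors to -0.00012 for the mTORC1 and AMPK genes.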

How the data were processed

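Total RNA of 2 heart libraries was quantified by the authors on mm10 with GENCODE M21, per the README files deposited with the tables. Per the file headers, the deposited tables give expected counts (called estimated counts in direct tables), TPM, an interval of credible TPM signal around it, and the percent of gene TPM held by a transcript. Alignment-based tables derive from a transcriptome alignment and direct tables from the reads. Aligner, quantifiers and strand setting are not given in the sources used here.

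TPM was rescaled to endogenous genes, and direct values were summed per gene. Counts were rounded and scaled by TMM in edgeR 4.0.16 (R 4.3.3), with a prior count of 2. Calls used 2-fold and a mean count of at least 50, or, between tables, at least 1 TPM. A count of 0 allows 3 counts. Python 3.11.15 with pandas 2.3.3, scipy 1.17.1 and matplotlib 3.10.9 did the rest. With 1 group there was no test. The coding end of 1 ATG8 gene is not reported here. Depth was 45599940.0 and 40801299 counts. Only the log2 ratio, scaled by library totals in place of TMM, and the counting interval were tested on simulated counts.

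All 38 members are named. Each partner list gives its 4 highest genes and any 2-fold apart, and marker lists give sums, with some of their genes named. Transcripts named are each member's main one and a second at 25% or more in both libraries, and other transcripts and near copies were chosen after their values were seen. Members and lists were chosen with earlier results of these data known. Alternatives were other scalings, priors, count and TPM minima, folds, DESeq2 1.42.0 size factors, the direct tables and each library alone.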

Additional observations from a re-analysis of the deposited data

How the results depend on the processing

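The members' 38 detections, 0 calls between the libraries and 0 between the kinds of table moved by less than 1.5 times under all alternatives run, with 31 members left at 5 TPM. The median level was 11.6 TPM in the direct tables and 37.8 TPM when rescaled to nuclear protein-coding genes, which leaves out other RNA from the total, and 12.6 to 13.003 TPM in the single libraries. Of the 38 levels, 17 were higher and 21 lower in the direct tables, by 0.734 to 1.37 times, and 22 moved by more than the SD between libraries. The median log2 ratio was 0.17 by spike-in totals and from -0.05 to -0.03 under the other scalings, priors and minima. Genes 2-fold apart over the whole table numbered 436 at a mean count of at least 10, 2453 with no filter and 353 at 1.5-fold, against 71. In the direct tables the ATG8 shares were 48.6% for Map1lc3a, 19.2% for Map1lc3b, 15.2% for Gabarap and 6.52% for Gabarapl2. By expected counts, which are not corrected for length, they were 36.4% for Map1lc3a, 23.2% for Map1lc3b, 16.4% for Gabarap and 17.1% for Gabarapl1. The cause of the differences between the kinds of table was not tested. No paired analysis was possible because there is 1 group. Depth limits Atg4c most, at 162 and 197 counts, and transcripts with few counts such as Uvrag-204.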
